A study of Mus musculus with 9 samples.

Results

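The genes described here are 33 cell cycle genes, 21 that act in G2 and mitosis and 12 that act at the start and during S phase. They were listed by symbol and matched to the single gene symbol of the array's probe annotation, and 32 of the 33 were found among the 18193 genes measured: 20 mitotic genes and 12 S phase genes. Ccnb1 is not analysed here. For a gene with several probe sets the brightest on average was used. Every value below is a log2 intensity made with RMA, so 1 unit is a change of 2-fold.

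The RNA came from granulosa cells of mice aged 20 to 26 days, punctured out of the ovary 48 h after equine chorionic gonadotropin (eCG), a hormone that drives follicle growth. The mice had various genotypes, and the genotype behind each array is not analysed here. Cells attached overnight in medium with 1% serum at a density of about 50%. They were then infected for 24 h in serum-free medium, at a nominal multiplicity of infection of 50, with an adenovirus that expresses eGFP (control, GFP), Cre recombinase (Cre) or WNT4 (WNT4). Per the design text, Cre recombined floxed Ctnnb1 alleles (the gene of beta-catenin), the WNT4 virus raised WNT4, and over 80% of cells were infected. Each group had 3 arrays, 9 in all, named below as GFP 1, Cre 2 and so on. All groups, the control included, carried an adenovirus, and no uninfected cells are analysed here. The replicates are labelled biological, with no animal or culture named, and the p-values measure only the spread between these arrays.

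A dividing cell copies its DNA in S phase and separates the copies in mitosis. The MCM proteins form the helicase that opens the DNA, and cyclin E, with E2F factors, opens the way into S phase. Cyclin B with Cdk1 then drives mitosis, Aurora and Polo-like kinases build the spindle, and Cdc20 starts the separation of chromosomes. Genes of S phase tend to carry E2F sites in their promoters, and genes of mitosis a CHR element, often beside CCAAT boxes. Granulosa cells divide fast in growing follicles and stop when they become luteal cells.

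Promoters of 6 members are printed to show how the 2 classes differ in sequence: 3 mitotic genes (Cdk1, Cdc20, Top2a) and 3 MCM genes (Mcm6, Mcm7, Mcm5). They are RefSeq promoters of GRCm38.p6, shown 5′ to 3′ on the gene's strand from 180 bases before the annotated start to 50 after it, 230 bases each. Cdk1 lies at chr10:69352863-69353092 (minus strand), Cdc20 at chr4:118437294-118437523 (minus) and Top2a at chr11:99024140-99024369 (minus). Mcm6 lies at chr1:128359656-128359885 (minus), Mcm7 at chr5:138171834-138172063 (minus) and Mcm5 at chr8:75109329-75109558 (plus). Capitals mark any match, on either strand, to the CHR (TTTGAA), the CCAAT box (CCAAT) or the E2F site (TTTCCCGC, TTTCGCGC, TTTGCCGC or TTTGGCGC). Where matches overlap, as at an E2F site read on both strands in Mcm6 and Mcm5 or an E2F site running into a CCAAT box in Mcm7, the capitals run on.
Cdk1: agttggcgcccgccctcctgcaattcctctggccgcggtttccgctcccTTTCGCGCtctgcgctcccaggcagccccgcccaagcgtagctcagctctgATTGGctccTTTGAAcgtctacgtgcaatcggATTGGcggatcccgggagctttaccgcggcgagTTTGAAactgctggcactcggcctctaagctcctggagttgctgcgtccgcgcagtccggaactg
Cdc20: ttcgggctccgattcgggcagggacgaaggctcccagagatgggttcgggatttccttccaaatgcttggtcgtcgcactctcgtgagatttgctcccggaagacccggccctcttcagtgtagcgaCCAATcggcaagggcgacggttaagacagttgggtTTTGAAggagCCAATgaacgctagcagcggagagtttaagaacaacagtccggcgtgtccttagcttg
Top2a: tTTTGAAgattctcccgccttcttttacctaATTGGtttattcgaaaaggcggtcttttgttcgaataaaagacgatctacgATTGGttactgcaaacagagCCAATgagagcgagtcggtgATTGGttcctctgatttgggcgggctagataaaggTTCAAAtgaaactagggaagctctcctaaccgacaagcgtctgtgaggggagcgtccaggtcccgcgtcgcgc
Mcm6: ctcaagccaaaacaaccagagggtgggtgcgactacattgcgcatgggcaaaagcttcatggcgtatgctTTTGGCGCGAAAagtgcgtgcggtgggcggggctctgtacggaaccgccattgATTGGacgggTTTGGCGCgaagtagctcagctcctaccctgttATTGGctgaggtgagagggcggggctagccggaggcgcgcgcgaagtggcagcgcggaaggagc
Mcm7: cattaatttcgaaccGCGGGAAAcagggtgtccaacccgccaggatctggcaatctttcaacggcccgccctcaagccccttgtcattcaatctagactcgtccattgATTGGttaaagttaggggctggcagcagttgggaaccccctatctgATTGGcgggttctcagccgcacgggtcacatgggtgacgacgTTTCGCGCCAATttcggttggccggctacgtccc
Mcm5: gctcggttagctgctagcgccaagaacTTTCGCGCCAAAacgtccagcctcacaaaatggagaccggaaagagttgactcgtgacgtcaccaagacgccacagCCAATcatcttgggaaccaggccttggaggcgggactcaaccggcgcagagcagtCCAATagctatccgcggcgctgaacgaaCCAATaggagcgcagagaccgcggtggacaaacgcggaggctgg

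The 2 classes carried different motifs in these windows. In the full 300-base promoters, the CHR was present in 12 of the 17 mitotic genes with an entry (Mki67, Top2a, Ccnb2, Cdk1, Bub1b, Aurka, Plk1, Cenpa, Cenpf, Kif11, Prc1, Cdc20) and in 1 of the 10 S phase genes with one (Mcm2), beside 17.9% of all 32851 promoters. E2F sites ran the other way, in 5 of 10 S phase genes (Mcm3, Mcm5, Mcm6, Mcm7, Cdc6) and 1 of 17 mitotic genes (Cdk1), beside 2.26% of all promoters. CCAAT boxes were common to both, in 15 of 17 mitotic and 7 of 10 S phase genes, beside 37.4% of all promoters. Members are counted here by gene and the background by promoter entry. By entry, E2F sites were in 5 of 11 S phase and 1 of 18 mitotic promoters, and the second Mcm7 entry had none. The CHR was in 1 of 11 and 13 of 18 entries. Ccnb1, whose RNA is not analysed here, is counted among the 17. A match is a run of letters, not a site shown to be bound. Ccna2, Aurkb, Tpx2, Kif20a, Mcm4 and Ccne2 had no matched entry.

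**Figure D1:**
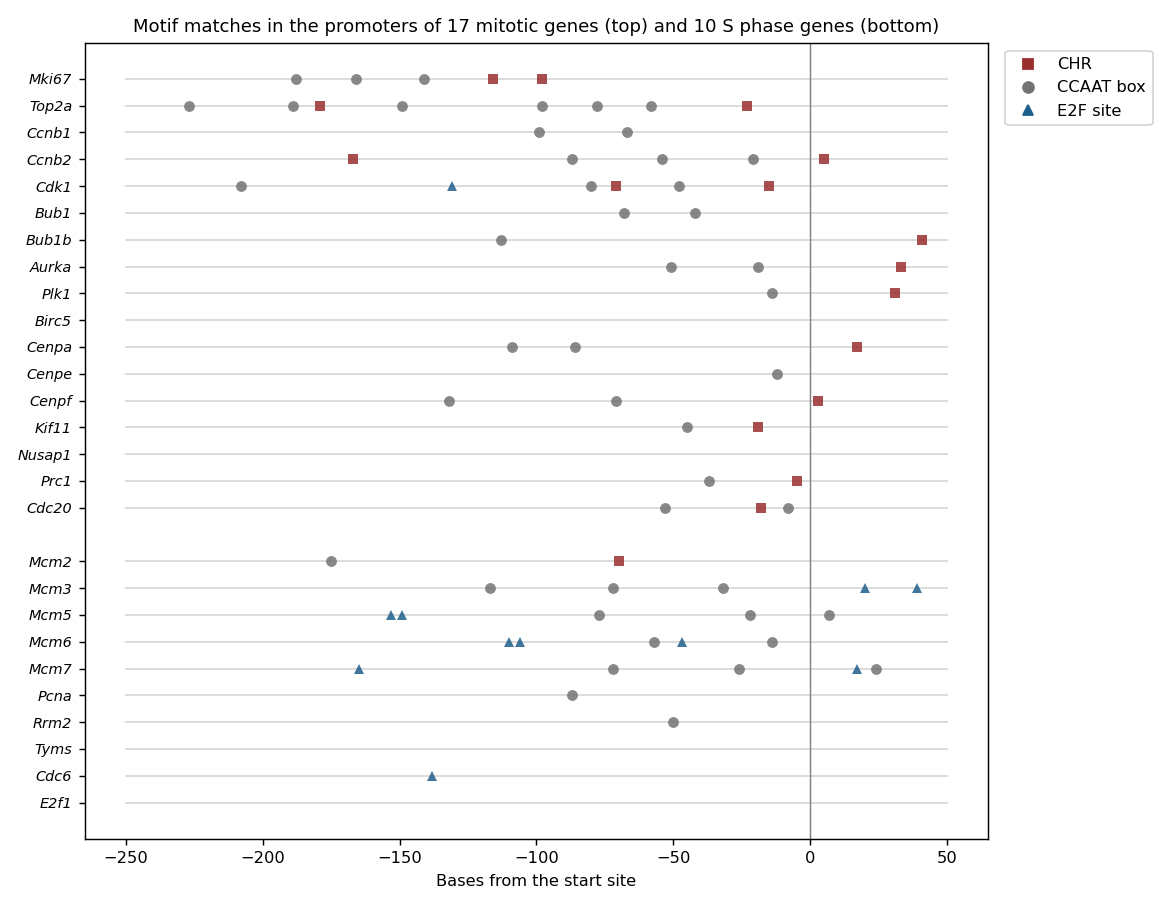
Positions of motif matches in the promoters of the members, with distance from the annotated start site in bases on the horizontal axis 1 line for each gene (its first promoter entry) and each mark at the leftmost base of a match. CHR matches lie mostly in the mitotic genes (12 of 17) and E2F sites mostly in the S phase genes (5 of 10).

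The viruses' target genes did not settle the labels, so directions are given as labelled. The 2 probe sets of Wnt4 had means of 9.41 and 8.32 in GFP, 10.63 and 9.62 in Cre, and 9.34 and 9.29 in WNT4. Whether these probes detect the viral transcript, or the deleted part of Ctnnb1, was not tested. The 3 probe sets of Ctnnb1 had GFP means of 13.24, 9.47 and 7.43 and Cre means of 13.28, 9.67 and 7.53, and none of the 5 was called in any comparison.

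Most members, 28 of 32, were above the dim range, some of them narrowly: Kif20a had a mean of 6.06, Ccne2 of 6.20 and Cenpe of 6.22. The 20 mitotic genes had a median level of 7.16 over the 9 arrays and the 12 S phase genes one of 8.74, beside 6.72 for all genes (levels of different probe sets are not per length and rank no gene against another). Aurkb and Kif11 in the mitotic class and Tyms and Cdc6 in the S phase class had a mean under 6, the level below which probe sets were treated as dim. Of the 12 granulosa markers 11 had a mean of at least 6, all but Amh, and the list's median was 11.38.

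Most of the movement of these genes was between arrays of the same group. GFP 1 was the lowest GFP array in all 20 mitotic genes and in 11 of 12 S phase genes, and GFP 2 the highest in 19 and 9 of them. Cre 1 was the highest Cre array in 20 and 10, and WNT4 1 the highest WNT4 array in 20 and 9. Cre 2 was the lowest Cre array in 15 mitotic and 12 S phase genes, and WNT4 2 the lowest WNT4 array in 17 and 11. From GFP 1 to GFP 2 the mitotic genes differed by a median of 1.31 (2.48-fold, single genes from 0.55 to 2.06) and the S phase genes by 0.96 (1.95-fold). From Cre 1 to Cre 2 the medians were -0.87 and -1.0, and from WNT4 1 to WNT4 2 they were -1.07 and -1.11. Over all genes these array pairs differed by medians within 0.03, which the normalization between arrays in RMA keeps small. From GFP 1 to GFP 2 single genes ran from -2.44 to 3.57.

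**Figure D2:**
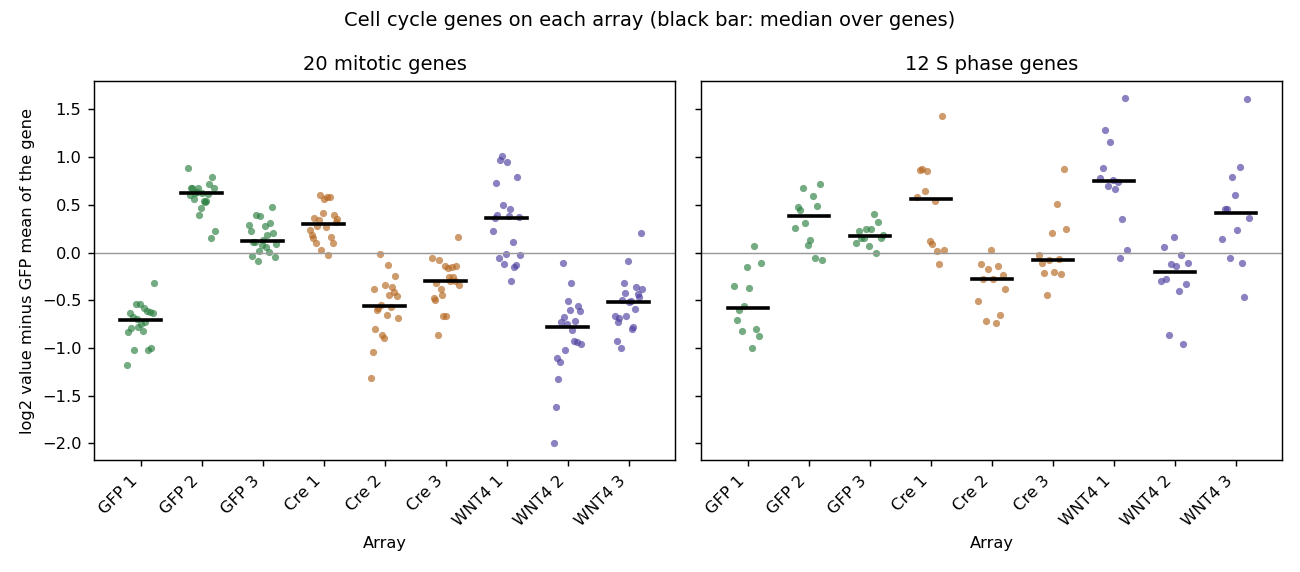
Each member's log2 value minus its GFP mean on each of the 9 arrays (vertical axis, log2 units), mitotic and S phase genes apart, with the class median marked. Both classes are low on GFP 1 and high on GFP 2, Cre 1 and WNT4 1, and the class medians span -0.79 to 0.62 for mitotic and -0.58 to 0.75 for S phase genes.

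The spread within groups was large for genes of their brightness. All 20 mitotic genes and 10 of 12 S phase genes had a within-group SD above 0.23, the median of the 10556 genes with a mean of at least 6. In 17 and 8 of them the SD was in the top 10% of those genes, with class medians of 0.58 and 0.56. Of a mitotic gene's variance over the arrays, a median of 9.4% lay between groups, and of an S phase gene's 14.4%, beside 24.7% for all genes. Means of so few arrays differ without any group effect, so none of these shares shows one by itself. From the lowest to the highest array the mitotic genes spanned 2.48-fold to 7.39-fold (median 2.93) and the S phase genes 1.14-fold to 5.65-fold (median 2.83), beside a median of 1.72 for the brighter genes. The members moved together across arrays: the correlation with the mean of the rest of the class over the 9 arrays was above 0.8 in 19 of 20 mitotic and 8 of 12 S phase genes. These correlations are descriptive, since the genes share arrays. In bulk RNA, fewer cells in cycle and less of each RNA per cell cannot be told apart.

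Other measures moved between arrays as well, and their part in these values was not tested. WNT4 1, high for both classes, had the highest upper quartile (8.0, others 7.68 to 7.87), the largest 3′ minus 5′ difference of the Gapdh control (2.17, others 0.95 to 1.88) and the lowest array weight (0.67, others 0.79 to 1.52). The 8 oocyte markers included 7 with a mean of at least 6 (not Bmp15). They lay a median of 1.78 above the GFP mean on WNT4 1, 1.03 on Cre 1 and 0.72 on GFP 2. The mitotic genes were highest on the same 3 arrays, but the match did not extend to the other 6. There the oocyte markers lay between -0.49 and 0.59. They were at 0.59 on Cre 2, where the mitotic median was -0.56, and at -0.49 on GFP 3, where it was 0.12. On WNT4 3 the S phase median was 0.41 and the oocyte median -0.04. The summed linear level of the oocyte markers ran from 951 to 2244 in GFP, 1156 to 2975 in Cre and 1307 to 4719 in WNT4 arrays. The 8 theca and stroma markers had medians of 0.64 on WNT4 1, 0.26 on GFP 2 and -0.33 on GFP 1, with Cyp17a1, Lum and Myh11 under 6 and sums of 3368 to 7288, 3389 to 7116 and 2835 to 8680. The 7 leukocyte markers were highest on replicate 3 of each group (0.64, 0.84 and 0.77), with Ptprc and Cd79a under 6 and sums of 757 to 1564, 761 to 1538 and 749 to 1469. Of 5 endothelial and 5 surface epithelium markers 4 each were under 6, as were both erythrocyte markers measured.

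The mitotic genes showed this pattern most fully. Mki67, which encodes the Ki-67 protein of dividing cells, spanned the widest range of any member, 7.39-fold. It measured 7.19, 9.25 and 8.66 in GFP 1 to 3, 8.60, 7.05 and 8.31 in Cre 1 to 3, and 8.59, 6.37 and 7.70 in WNT4 1 to 3. The lowest array was WNT4 2 and the highest GFP 2, and all 3 groups overlapped. Top2a, the topoisomerase that untangles chromosomes before they part, measured 7.29, 8.73 and 8.35 in GFP, 8.31, 7.08 and 7.65 in Cre, and 8.48, 6.50 and 7.20 in WNT4. Its order of arrays resembled that of Mki67, with replicate 1 high in the Cre and WNT4 groups and low in the GFP group. Cdk1, the kinase that drives entry into mitosis, measured 8.65, 9.89 and 9.44 in GFP, 9.43, 8.72 and 8.46 in Cre, and 9.27, 8.18 and 8.33 in WNT4. GFP 1 fell among the lower WNT4 and Cre values, so the groups overlapped, though 2 of 3 GFP arrays were above every WNT4 array.

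The kinases, kinesins and centromere genes were high and low on much the same arrays. Plk1, the Polo-like kinase, measured 7.20, 8.21 and 7.82 in GFP, 8.16, 6.85 and 7.60 in Cre, and 7.73, 6.99 and 7.65 in WNT4. Aurkb, the Aurora kinase of the chromosomal passenger complex, was dim, at 5.44, 6.61 and 6.60 in GFP, 6.24, 5.35 and 5.55 in Cre, and 6.10, 5.20 and 5.55 in WNT4. For Aurkb, GFP 2 and GFP 3 lay above every Cre and WNT4 array and GFP 1 among the lowest. Cenpe, a kinesin that carries chromosomes to the spindle's middle, measured 5.79, 7.05 and 6.70 in GFP, 6.49, 6.07 and 6.21 in Cre, and 6.21, 5.70 and 5.73 in WNT4. Cenpf, a kinetochore protein, measured 6.55, 7.78 and 7.17 in GFP, 7.75, 6.60 and 7.01 in Cre, and 7.28, 6.24 and 6.57 in WNT4. Cenpe had 35.8% of its variance between groups, and its GFP group overlapped both others only through GFP 1. Kif20a, a kinesin of cytokinesis, measured 5.67, 6.45 and 6.77 in GFP, 6.40, 5.88 and 6.0 in Cre, and 6.17, 5.36 and 5.86 in WNT4. Cdc20, the activator of the anaphase-promoting complex, measured 9.38, 9.93 and 9.79 in GFP, 10.05, 9.01 and 9.36 in Cre, and 9.67, 8.74 and 9.32 in WNT4. Its 2.49-fold range was among the narrowest of the mitotic genes, and the order of arrays was the same kind, with Cre 1 highest.

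The other mitotic genes are given by their ranges over the 9 arrays. The cyclins Ccna2 and Ccnb2 ran from 6.25 to 8.25 and from 6.20 to 8.03. The spindle checkpoint kinases Bub1 and Bub1b ran from 5.45 to 7.44 and from 7.83 to 9.38, and Aurka, the Aurora kinase of the spindle poles, from 7.05 to 8.43. Birc5 (survivin, the partner of Aurkb) ran from 6.30 to 8.0. Tpx2, which activates Aurka on the spindle, ran from 5.92 to 7.28, Nusap1, a microtubule binder, from 5.64 to 7.44, and Prc1, the bundler of the central spindle, from 7.95 to 9.26. Cenpa, the histone of centromeres, ran from 6.47 to 7.86 and Kif11, the kinesin that separates spindle poles, from 5.14 to 6.88. Over all 20 mitotic genes the lowest array was WNT4 2 in 10, GFP 1 in 8, and Cre 2 and WNT4 3 in 1 each. The highest was GFP 2 in 13, WNT4 1 in 4, Cre 1 in 2 and GFP 3 in 1.

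The S phase genes shared the swing but had other extremes. The lowest array was GFP 1 in 7 of 12, Cre 2 in 3 and WNT4 2 in 2, and the highest was WNT4 1 in 8, WNT4 3 in 2, and GFP 1 and GFP 2 in 1 each. Among the helicase subunits, Mcm7 measured 11.52, 11.75 and 11.74 in GFP, 11.79, 11.70 and 11.87 in Cre, and 12.43, 11.83 and 12.27 in WNT4. All 3 WNT4 arrays were above all 3 GFP arrays, while WNT4 2 was below Cre 3. Mcm7 also varied least within groups among the MCM genes (SD 0.20) and had 63.5% of its variance between groups. Mcm6 measured 8.91, 9.78 and 9.72 in GFP, 10.32, 9.30 and 9.39 in Cre, and 10.63, 9.35 and 10.26 in WNT4. Mcm2 measured 9.30, 9.91 and 9.75 in GFP, 10.24, 9.15 and 9.63 in Cre, and 10.43, 9.35 and 9.79 in WNT4. For both Mcm6 and Mcm2 WNT4 1 was the highest array, and WNT4 2 lay among the GFP values. Mcm3, Mcm4 and Mcm5 ran from 7.37 to 8.97, 8.12 to 10.01 and 7.76 to 9.32.

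Pcna, the sliding clamp of the DNA polymerases, measured 11.11, 11.61 and 11.73 in GFP, 11.57, 11.21 and 11.28 in Cre, and 12.15, 11.34 and 11.72 in WNT4. Rrm2, the subunit of ribonucleotide reductase made in S phase, measured 8.07, 9.67 and 9.48 in GFP, 9.61, 8.33 and 9.58 in Cre, and 9.81, 8.67 and 9.97 in WNT4. Ccne2, a cyclin E, measured 4.78, 6.37 and 5.81 in GFP, 7.08, 5.42 and 6.53 in Cre, and 7.27, 5.32 and 7.26 in WNT4. Ccne2 had the widest range of the S phase genes, 5.65-fold: 2 of 3 arrays in both the Cre and the WNT4 group were above every GFP array, and the third was below 2 of the 3 GFP arrays. E2f1, an activator E2F, stayed between 6.41 and 7.16 on all 9 arrays (6.69, 6.72 and 6.98 in GFP, 6.82, 6.41 and 7.04 in Cre, 6.82, 6.69 and 7.16 in WNT4). Cdc6, the loader of the MCM helicase, was dim, at 4.78, 6.07 and 5.91 in GFP, 5.47, 4.93 and 5.36 in Cre, and 5.94, 4.63 and 5.12 in WNT4. Tyms, thymidylate synthase, was near the floor and flat, with a 1.14-fold range around a mean of 4.60. E2f1 and Tyms were the members that followed their class least over the 9 arrays (r = 0.49 and -0.19).

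**Figure D3:**
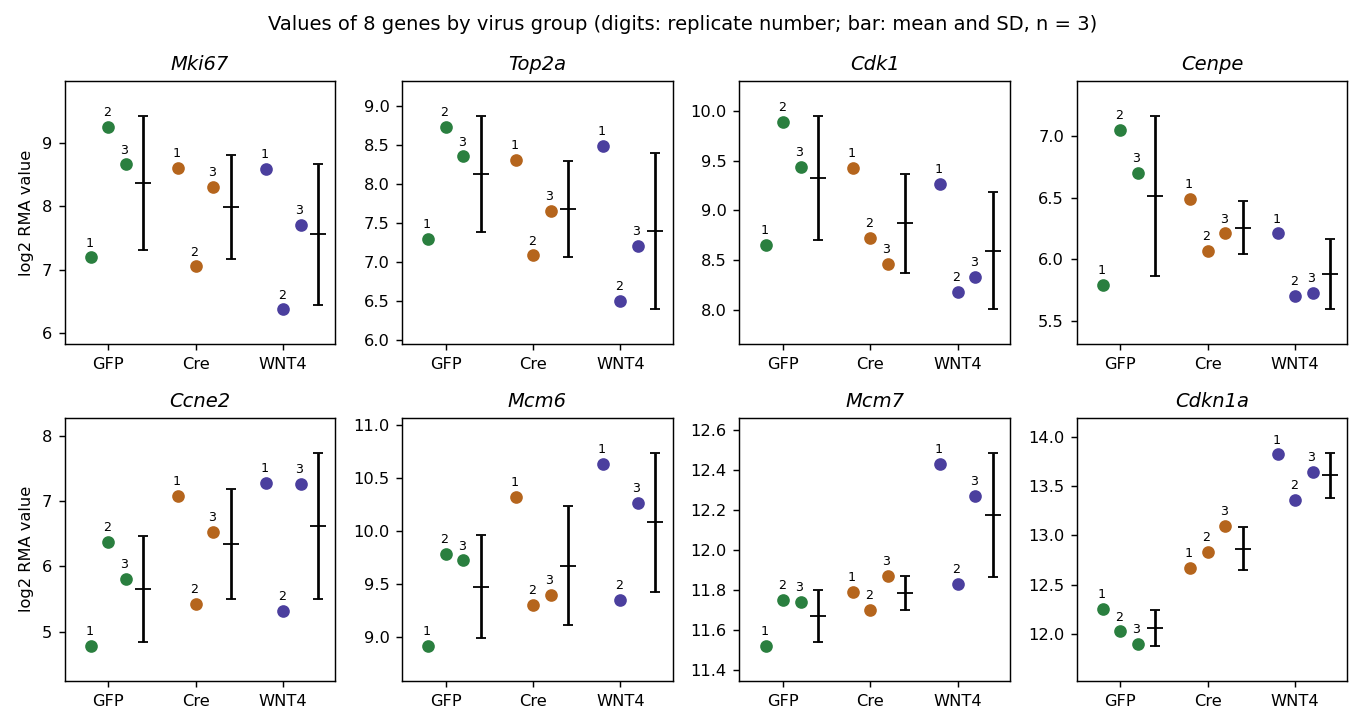
Log2 RMA values of 8 genes (vertical axis) in the GFP, Cre and WNT4 groups, each point an array marked with its replicate number and each bar the mean and SD of 3 arrays. Mcm7 is the member whose WNT4 arrays (11.83 to 12.43) all lie above the GFP arrays (11.52 to 11.75), and Cdkn1a, no member, is lowest in GFP and highest in WNT4 with no overlap.

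The comparison of WNT4 with GFP asked how added WNT4 changed the cells. No member passed limma at an adjusted p under 0.05 (0 of 32, lowest adjusted p = 0.249 for Mcm7), with 7 of 45037 probe sets called in all, or 0.0155%. The classes leaned apart. Of the mitotic genes 19 of 20 had a negative difference, with a median of -0.39 (1.31-fold lower). Of the S phase genes 9 of 12 had a positive one, with a median of 0.33 (1.26-fold higher). Most genes of a class moved together over the arrays, so such counts, here and in the comparisons below, are not separate observations. Without GFP 2 the mitotic median was -0.06. Over all genes 9800 of 18193 were positive and the median was 0.02. That background is dimmer, with a median level of 6.72 beside 8.74 for the S phase genes. After a second quantile normalization the S phase median difference was 0.09. The oocyte markers were positive in 8 of 8 with a median of 0.62, and 0 of them had an unadjusted p under 0.05; their part in the lean of the S phase genes was not tested. At an unadjusted p under 0.05 there was 1 member higher and 0 lower, beside 12.6% of all genes higher and 4.46% lower. Arrays did not overlap for 1 member, higher, beside 12.5% of genes higher and 5.52% lower, so neither count of members was above its background.

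The largest mitotic differences of WNT4 from GFP were those of Mki67, Top2a and Cdk1, none past the test. Mki67 was at 8.37 ± 1.06 (SD, n = 3) in GFP and 7.55 ± 1.12 in WNT4, a difference of -0.82 ± 0.69 (SE, adjusted p = 0.66). Top2a differed by -0.73 ± 0.55 (adjusted p = 0.616) and Cdk1 by -0.73 ± 0.39 (adjusted p = 0.474). Cenpe had the lowest mitotic p, with a difference of -0.64 ± 0.30 (adjusted p = 0.414). Aurkb differed by -0.60 ± 0.37 (adjusted p = 0.536), Kif20a by -0.50 ± 0.30 (adjusted p = 0.526) and Cdc20 by -0.46 ± 0.31 (adjusted p = 0.574). Bub1b was the mitotic gene with a positive difference, 0.19, and its other probe set with a mean of at least 6 gave -0.14. Birc5 and Prc1 had group means within 0.03 of each other.

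Among the S phase genes Mcm7 had the lowest p in WNT4 against GFP, short of a call after adjustment, and its difference shrank under quantile normalization. It was at 11.67 ± 0.13 (SD, n = 3) in GFP and 12.17 ± 0.31 in WNT4, a difference of 0.50 ± 0.15 (1.42-fold, unadjusted limma p under 0.05, adjusted p = 0.249). Its other 3 probe sets gave 0.50, 0.34 and 0.28. With a second quantile normalization the difference was 0.14 (adjusted p = 0.747), and without WNT4 2 it was 0.68 (limma adjusted p = 0.0424, the lowest over the settings tried). Mcm6 differed by 0.61 ± 0.39 (adjusted p = 0.557) and Ccne2 by 0.96 ± 0.64 (1.95-fold, adjusted p = 0.566). Mcm4, Mcm3 and Rrm2 had differences of 0.49, 0.47 and 0.41. Pcna, Mcm2 and E2f1 had differences of 0.25, 0.20 and 0.10, and Mcm5, Tyms and Cdc6 of -0.08, -0.06 and -0.36.

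Single arrays decided how far the classes lay from GFP. The mitotic median was -0.67 without GFP 1, -0.06 without GFP 2, -0.26 without GFP 3, -0.64 without WNT4 1 and -0.16 without WNT4 2. The S phase median was 0.05 without GFP 1, 0.11 without WNT4 1 and 0.57 without WNT4 2. Neither median changed sign when any 1 array was left out. After a second quantile normalization the S phase median was 0.09 and the mitotic median -0.45. Without GFP 1, 6 members had an unadjusted limma p under 0.05: Cdk1, Aurkb, Cenpe, Kif11 and Kif20a lower, and Mcm7 higher. Without WNT4 1 there were 5 (Top2a, Ccnb2, Cdk1 and Cenpe lower, Mcm7 higher), and without WNT4 2 there were 3, all higher (Mcm6, Mcm7 and Ccne2).

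The comparison of Cre with GFP asked what loss of beta-catenin, or Cre itself, did. No member passed limma at an adjusted p under 0.05 and 0 of 32 had an unadjusted p under 0.05, beside 0% of probe sets called and 1.24% of genes higher and 1.29% lower unadjusted. No member's arrays were separate, beside 3.56% of genes higher and 2.64% lower. The mitotic genes had a median of -0.19, negative in 17 of 20, and the S phase genes one of 0.06, positive in 7 of 12, beside -0.01 over all genes and 0.49 for the oocyte markers (8 of 8 positive). The lowest mitotic p values were those of Aurkb at -0.50 ± 0.37, Cdk1 at -0.45 ± 0.39 and Cenpe at -0.26 ± 0.30. The lowest S phase ones were Ccne2 at 0.69 ± 0.64 and Cdc6 at -0.33 ± 0.40, and all 5 had an adjusted p of 1 in limma. These medians turned with single arrays: the mitotic median was 0.09 without GFP 2, 0.01 without Cre 2, -0.42 without Cre 1, -0.54 without GFP 1 and -0.10 without GFP 3. The S phase median was -0.15 without GFP 1, -0.12 without Cre 1, 0.00 without Cre 3, 0.22 without Cre 2, 0.16 without GFP 2 and 0.11 without GFP 3. Without GFP 1, 3 members (Aurkb, Cenpe and Kif11) had an unadjusted limma p under 0.05, all lower.

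The comparison of WNT4 with Cre uses no GFP array, though all 3 comparisons share arrays in pairs. Here 0 of 32 members passed limma after adjustment, beside 0% of probe sets, and 1 member, Mcm7, had an unadjusted p under 0.05, higher, beside 6.96% of genes higher and 1.19% lower. No member's arrays were separate, beside 6.55% of genes higher and 2.41% lower. Mcm7 differed by 0.39 ± 0.15 (adjusted p = 0.775), or by 0.11 after a second quantile normalization. Its other 3 probe sets gave 0.35, 0.16 and 0.04, none with an unadjusted limma p under 0.05. Without WNT4 1 the Mcm7 difference was 0.26. Pcna differed by 0.38 ± 0.23 (adjusted p = 0.88), by 0.11 after quantile normalization, by 0.17 without WNT4 1 and by 0.58 without WNT4 2. The mitotic median was -0.18, negative in 17 of 20, and the S phase median 0.27, positive in 10 of 12, beside 0.04 over all genes. The lowest mitotic p values were those of Cenpe at -0.38 ± 0.30 (adjusted p = 0.94), Cenpf at -0.43 ± 0.40 (adjusted p = 0.961) and Kif20a at -0.30 ± 0.30 (adjusted p = 0.966). The mitotic median was 0.07 without Cre 1, 0.14 without WNT4 2, -0.36 without Cre 2 and -0.48 without WNT4 1. The S phase median was -0.04 without Cre 2, 0.02 without WNT4 1, 0.15 without WNT4 3, 0.50 without Cre 1 and 0.53 without WNT4 2.

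**Figure D4:**
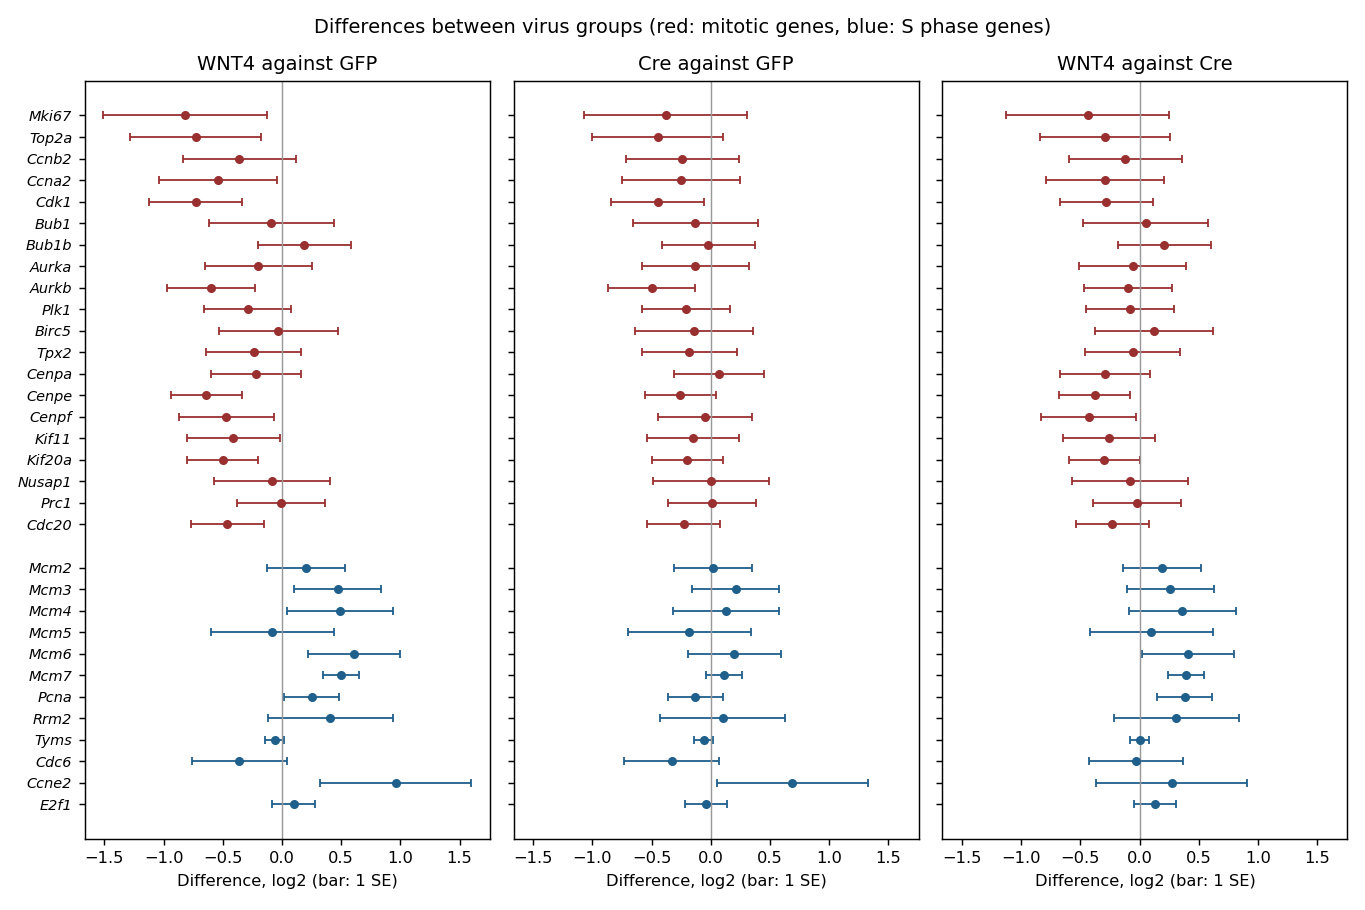
Difference of each member (log2, horizontal axis) for the 3 comparisons, with the SE of the limma fit as bars and mitotic genes apart from S phase genes. In WNT4 against GFP the mitotic genes lie mostly below 0 (19 of 20) and the S phase genes mostly above it (9 of 12). Most genes of a class move together over the arrays, so these counts are not separate observations. Mcm7 alone has an unadjusted limma p under 0.05 in that comparison.

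Set against each other within an array, the 2 classes separated the groups more cleanly than either did alone. For each array, the median deviation of the mitotic genes from their GFP means minus that of the S phase genes was -0.13, 0.24 and -0.05 in GFP, -0.26, -0.28 and -0.23 in Cre, and -0.38, -0.58 and -0.93 in WNT4. The 3 groups did not overlap: every Cre array was below every GFP array and every WNT4 array below every Cre array. The group means were 0.02 ± 0.19, -0.26 ± 0.03 and -0.63 ± 0.28 (SD, n = 3). The difference was -0.65 for WNT4 against GFP, -0.28 for Cre against GFP and -0.37 for WNT4 against Cre. This quantity was formed after the values had been seen and is a description, with no test. Because both classes swing together from array to array, the subtraction removes much of the swing: WNT4 1 was high for both classes, yet its mitotic genes were 0.36 and its S phase genes 0.75 above their GFP means.

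The order of the groups held under 4 other settings. These reuse the same arrays and all or most of the same genes, so they are no separate evidence for the order. WNT4 against GFP was -0.56 after a second quantile normalization, -0.49 when all probe sets of a gene were averaged, -0.67 without dim probe sets and -0.59 without Mcm7 and Ccne2, and the 3 groups stayed apart in each. With 1 array left out of its group mean it lay between -0.77 and -0.50. Done the same way, Cre against GFP lay between -0.35 and -0.17, the smallest without GFP 2. WNT4 against Cre lay between -0.50 and -0.22, the smallest without WNT4 3. Each gene's deviation was still taken from the mean of all 3 GFP arrays, so a GFP array left out kept that part. In the genes of 2 further lists, 39 mitotic and 33 replication genes, the same subtraction was smaller: -0.03, 0.14 and -0.07 in GFP, -0.00, -0.21 and -0.13 in Cre, and -0.10, -0.13 and -0.38 in WNT4. There the WNT4 arrays were all below the GFP arrays, by a mean of -0.22, while Cre overlapped both.

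**Figure D5:**
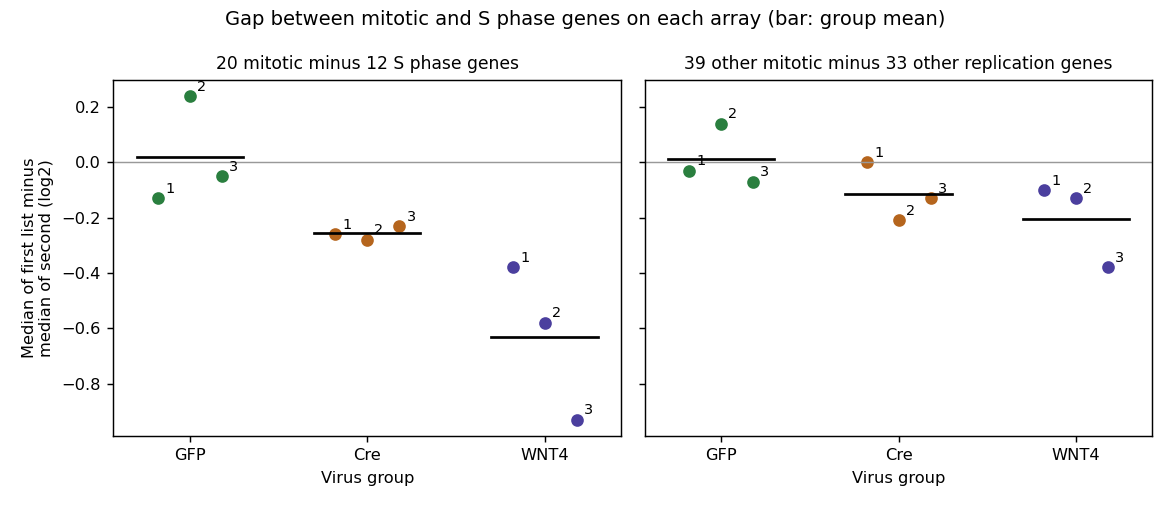
Median deviation of the mitotic genes minus that of the S phase genes on each array (vertical axis, log2 units), by group. For the members (left) the values are -0.13 to 0.24 in GFP, -0.28 to -0.23 in Cre and -0.93 to -0.38 in WNT4, with no overlap. For 39 further mitotic and 33 further replication genes (right), Cre at -0.00, -0.21 and -0.13 overlaps both other groups.

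Where a member had further probe sets, most moved with the one used. The 23 members with more than 1 probe set had 74 in all. Leaving out those under 6 on average, 18 further probe sets remained, and 15 of them correlated above 0.8 with the one used over the 9 arrays, the lowest being one of E2f1 (0.33), and 16 had a WNT4 minus GFP difference of the same sign. In that comparison the further probe set of Mcm6 gave 0.28 and that of Mcm4 gave 0.73. In WNT4 against Cre 15 of the 18 had the sign of the one used. There the further probe sets of Mcm6 and Mcm4 gave -0.22 and 0.02, beside 0.41 and 0.36 in the ones used.

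Other genes of the pathway showed where the members' pattern was and was not shared. Of 33 further replication genes 1 was lower at an unadjusted limma p under 0.05 in WNT4 against GFP and 0 were higher, beside 4.46% of all genes lower and 12.6% higher, with a median of 0.04. The lower gene, Fen1, the flap endonuclease of Okazaki fragments, measured 13.64, 13.62 and 13.31 in GFP, 13.76, 13.39 and 13.13 in Cre, and 11.78, 13.19 and 12.24 in WNT4, a difference of -1.12 ± 0.32 (adjusted p = 0.238). Its WNT4 arrays were all below its GFP arrays, but with all its probe sets averaged the difference was -0.44 and the unadjusted p was no longer under 0.05. Chaf1b, a histone chaperone, differed by -0.36 ± 0.18 (adjusted p = 0.438). Against GFP the Cre arrays gave 0 of 33 with a median of -0.03, and the lowest p values were those of Pole, a replicative polymerase, at -0.53 ± 0.29 and Gins3, a helicase partner with a dim probe set, at -0.13 ± 0.09.

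Of 39 further mitotic genes the median was -0.20 in WNT4 against GFP, negative in 32, and -0.10 in Cre against GFP, negative in 31. In WNT4 against GFP 2 were lower and 1 higher at an unadjusted limma p under 0.05, beside 4.46% of all genes lower and 12.6% higher, and in Cre against GFP 0 were. Both lower genes were dim: Hmmr, a spindle protein with a mean of 5.98, differed by -0.69 ± 0.28 (adjusted p = 0.354), and Knl1, a kinetochore scaffold with a mean of 4.59, by -0.37 (adjusted p = 0.376). The Hmmr difference was -0.29 with all its probe sets averaged and -0.44 without GFP 2. Cks2, a small partner of Cdk1, went the other way: it measured 10.12, 10.13 and 10.07 in GFP, 10.33, 10.12 and 10.89 in Cre, and 11.05, 10.38 and 11.41 in WNT4, a difference of 0.84 ± 0.27 (adjusted p = 0.262). In Cre against GFP the lowest p values were those of Cdc25c, the phosphatase that activates Cdk1 (also dim), at -0.29 and Hmmr at -0.38.

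Among 35 regulators of cell cycle entry and exit 1 passed the adjusted test in WNT4 against GFP. Cdkn1a, the CDK inhibitor p21, measured 12.26, 12.03 and 11.90 in GFP, 12.67, 12.83 and 13.10 in Cre, and 13.82, 13.36 and 13.64 in WNT4. It was higher in WNT4 by 1.55 ± 0.16 (limma adjusted p = 0.0341, 0.0272 to 0.269 over the settings tried, with the call lost in 11 of 16) and in Cre by 0.80 ± 0.16 (adjusted p = 1, unadjusted p under 0.05). Ccng1, cyclin G1, differed by 1.03 ± 0.18 in WNT4 (limma adjusted p = 0.166) and by 0.58 ± 0.18 in Cre (adjusted p = 1). In all, 4 regulators were higher and 1 lower in WNT4 against GFP at an unadjusted p under 0.05, and 2 higher in Cre, with medians of 0.13 and 0.09. These were 4 and 1 of 35 beside 12.6% of all genes higher and 4.46% lower, and 2 of 35 beside 1.24% higher in Cre. The lower gene, chosen after its values were seen, was E2f5, a repressor-type E2F. It measured 13.57, 13.89 and 14.17 in GFP, 13.69, 13.12 and 13.90 in Cre, and 10.32, 13.37 and 12.61 in WNT4. The difference of WNT4 from GFP was -1.78 ± 0.65 (limma adjusted p = 0.308). WNT4 1 lay far below the other arrays, and the E2f5 difference without it is not reported here.

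The genes whose values over the 9 arrays were most like the mean of the mitotic genes, of 10528 candidates outside the members, were Prim1 (r = 0.971), Cep55 (0.967), Ube2c (0.963), Spc25 (0.957), Espl1 (0.956) and Pclaf (0.954). Those most like the S phase genes were Dut (r = 0.982), Cth (0.964), Cdt1 (0.954), Phldb2 (0.954), Gins1 (0.952) and Col3a1 (0.951). Prim1, a primase subunit, is a replication gene that matched the mitotic class, and Cth, an enzyme of cysteine synthesis, Phldb2 and Col3a1, a fibrillar collagen, are outside the cell cycle lists. Col3a1 is also among the stroma markers given above.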

How the data were processed

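RNA of cultured mouse granulosa cells was measured on 9 Affymetrix arrays, in 3 groups of 3. The deposited values are log2 intensities made by the authors with RMA, per the submitters' processing notes. RMA subtracts background, normalizes between arrays and summarises probes, so it lessens differences in total signal. Values ran from 3.46 to 15.28, and no pair of arrays shared more than 4.53% equal values.

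Of 45101 probe sets, 64 Affymetrix controls were left out and 45037 tested. The annotation gave 34945 of them 1 gene symbol, 932 several and 9160 none (unnamed here). Of the 34945, 34741 were matched by Entrez ID to a RefSeq table (GRCm38.p6), which also holds the promoters. No build is named for the array annotation. Genes were read from the probe set with the highest mean.

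Differences were tested with lmFit and eBayes of limma 3.58.1, under R 4.3.3 (all 9 arrays, no covariate, 6 residual and 2.80 prior degrees of freedom), two-sided, with Benjamini-Hochberg adjustment over the 45037. An exact permutation test of 3 arrays against 3 cannot go below p = 0.1. Simulated data were used to test the fit: for WNT4 against GFP over 45037 probe sets it called 68 of 100 with a change of 1 and 93 of 100 with a change of 2. The changed probe sets were drawn from all 45037, each with its own spread and independent of the others. The median within-group SD was 0.58 in mitotic and 0.56 in S phase members, beside 0.19 for all genes. These rates therefore do not apply to the members, whose changes are harder to call. The number of arrays limits the precision. Tables were handled in Python 3.11.15 with pandas 2.3.3 and numpy 2.4.6.

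The members and gene lists were chosen with earlier results of these data known. Values are named for the 3 mitotic and 2 S phase members with the lowest p in each comparison and for a fixed set of members. In 3 further lists the 2 genes with the lowest p in each comparison with GFP, and Cdkn1a, are named, and the 6 genes most like each class. The rest of the genes named were picked with their values in view. The alternatives tried were a block on the replicate number, the arrays of a pair alone, quantile normalization, median centring, no dim probe sets (mean under 6), averaging all probe sets of each gene, array weights and each array left out.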

Additional observations from a re-analysis of the deposited data

How the results depend on the processing

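Of 696 values of 45 results recomputed under the alternatives, 667 kept their direction and side of the threshold, or moved by less than the spread between replicates. For the class medians that spread was 0.58 (mitotic) and 0.48 (S phase), larger than the medians themselves. A change of sign could thus count as kept, as when the mitotic median of Cre against GFP went from -0.19 to 0.09. The count of 667 is therefore no measure of how stable the class medians were. The count of members with an unadjusted limma p under 0.05 in WNT4 against GFP was 1, and 3 with array weights (Cdk1 and Cenpe lower, Mcm7 higher), and ran from 1 to 6 with 1 array left out. In Cre against GFP it was 0, and ran from 0 to 3 with 1 array left out. In WNT4 against Cre it was 1, ran from 0 to 2 with 1 array left out, and was 0 with the arrays of the pair alone, with quantile normalization and with the mean of probe sets. S phase members with an adjusted p under 0.05 in WNT4 against GFP ran from 0 to 1. Cenpe in Cre against GFP ran from -0.62 to 0.01, reversed without GFP 2. Without WNT4 2, Mcm7, Fen1 (-1.51) and Ccng1 (1.11) passed the adjusted test in WNT4 against GFP. After quantile normalization the S phase medians were 0.09, 0.00 and 0.11 in WNT4 against GFP, Cre against GFP and WNT4 against Cre, and the mitotic medians -0.45, -0.17 and -0.23. With array weights the S phase median of Cre against GFP was -0.06. The cause of these changes was not tested. The calls of dim members (Aurkb, Kif11, Tyms, Cdc6) are limited by signal over background.

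The replicate number as a block gave the same count of members with an unadjusted p under 0.05 in each comparison (1, 0 and 1) and left 0 with an adjusted p under 0.05. With the block the Mcm7 difference of 0.50 in WNT4 against GFP had an adjusted p = 0.217 in limma (0.0424 to 0.747 over the settings tried). The adjusted call of Cdkn1a was lost with it. Same-numbered arrays deviated together (every correlation over 0.1) in WNT4 against Cre alone (0.209, 0.237 and 0.768), where the labels give no pairing. The block changed no call there, but it was fitted over all 9 arrays, GFP included. Same-numbered Cre and GFP arrays had correlations of -0.038, -0.311 and 0.305. The block therefore cannot show what a pairing of WNT4 and Cre arrays alone would give, and that was not tested.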
